A study of Triticum aestivum with 18 samples.

Results

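The transcripts described here are those of 6 wheat redox genes: a 1-Cys peroxiredoxin (PER1, accession AY304482), a peroxidase (POX2, X85228), 3 glutathione transferases (gstu2, CA733231; GSTZ1, CA608586; Cla47, AY064480) and an alternative oxidase (Waox1c, AB078883). Each accession had 1 probe set, so the members are 6 of the 61179 wheat probe sets on the array, and all 6 passed the filter on dim signals. They were chosen by the treatment contrasts of these same arrays: each stands in the study's lists of genes that changed under ABA or H2O2, in which they fill 12 places over the 4 lists. PER1, POX2 and Cla47 stand in both ABA lists and Waox1c in that of the ABA embryo. The H2O2 endosperm list holds gstu2, GSTZ1 and Cla47, and gstu2 stands also in the H2O2 embryo and ABA endosperm lists. Their treatment folds are therefore given as descriptions without p-values, and nothing is read from the counts of calls on them. The contrasts of embryo with endosperm, which the lists did not use, were tested.

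Seeds of a Chinese bread wheat cultivar were imbibed in the dark. They were given water alone (CK), 100 mg/L ABA (abscisic acid, the hormone that holds back germination), or H2O2 as 100 μmol, an amount without a volume. The paper's Results give 16 h of imbibition in water with the radicle emerged. Its Methods tie the harvest of treated seeds to the emergence of the radicle. Whether the groups were matched by time or by stage is therefore not clear. Embryo and endosperm were separated by hand, which gave the groups CK_embryo, CK_endosperm, ABA_embryo, ABA_endosperm, H2O2_embryo and H2O2_endosperm, each with 3 arrays from independently treated seeds. Signals are linear MAS5 intensities from the Affymetrix Wheat Genome Array, a fold is computed from log2 signals with values below 10 raised to 10, and an error of a log2 value is its standard error in limma. In whole tissue, fewer cells of a type and less transcript per cell cannot be told apart. Near-identical copies from the 3 wheat subgenomes and from gene families are not separated by these probes, and the study's list pairs AY304482 with PER1 and with a further locus.

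Hydrogen peroxide is both a product of respiration in the imbibing seed and a signal in germination, and its level is set by the enzymes that make and remove it. Peroxiredoxins reduce peroxides through a reactive cysteine, and the 1-Cys form is known in barley from the embryo and aleurone of dormant, imbibed grain. Secreted plant peroxidases use H2O2 to oxidise phenolic compounds in the cell wall, glutathione transferases couple glutathione to reactive or toxic molecules, and the alternative oxidase passes electrons in the mitochondrion directly from ubiquinol to oxygen.

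The median signal of the wheat probe sets was 59.0 to 81.0 on 17 arrays and 137.9 on H2O2_embryo replicate 1, where 6.79% of probe sets lay below 10, against 17.5% to 20.8% on the others. That array was kept, and many of the values that use it are also given without it. The tissue labels were set against marker transcripts. WGA2, the wheat germ agglutinin of the embryo, was higher in embryo than in endosperm in every treatment, with 1485 to 1686 against 273 to 413 in CK. Of 19 embryo probe sets (WGA2 and histones of dividing cells), limma called 5 for embryo and 0 for endosperm in CK, 4 and 7 under ABA, and 15 and 1 under H2O2. The summed signal of 18 storage protein and starch synthase probe sets was higher in embryo in CK (5475 to 5846 against 4921 to 5425), higher in endosperm under ABA (6136 to 6938 against 5833 to 6027), and overlapped under H2O2 (4795 to 9540 in embryo and 6230.0 to 6694 in endosperm). Of its 17 tested probe sets, 3, 5 and 3 were called higher in endosperm and 0 in embryo. The part of cell composition in the results below was not tested.

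PER1 had a far brighter signal under ABA than in any other group. Its signals were 23484, 24916 and 21384 in ABA_embryo and 26011, 23602 and 24709 in ABA_endosperm. In water they were 806, 953 and 911 in embryo and 1915, 1633 and 2128 in endosperm. With H2O2 they were 1183, 1178 and 974 in embryo and 3035, 3541 and 3319 in endosperm. The ABA groups of both tissues overlapped each other and stood well above the rest, and below them came H2O2_endosperm, CK_endosperm, H2O2_embryo and CK_embryo, in that order and with no overlap between neighbours. ABA over CK was 26.2-fold in embryo (log2 4.71 ± 0.12) and 13.2-fold in endosperm (3.72 ± 0.12). H2O2 over CK was 1.25-fold in embryo (log2 0.32 ± 0.12) and 1.75-fold in endosperm (0.81 ± 0.12). Without replicate 1 of H2O2_embryo the embryo value was 0.27 ± 0.11. Between the treated groups, ABA over H2O2 was 21.0-fold in embryo and 7.52-fold in endosperm.

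**Figure D1:**
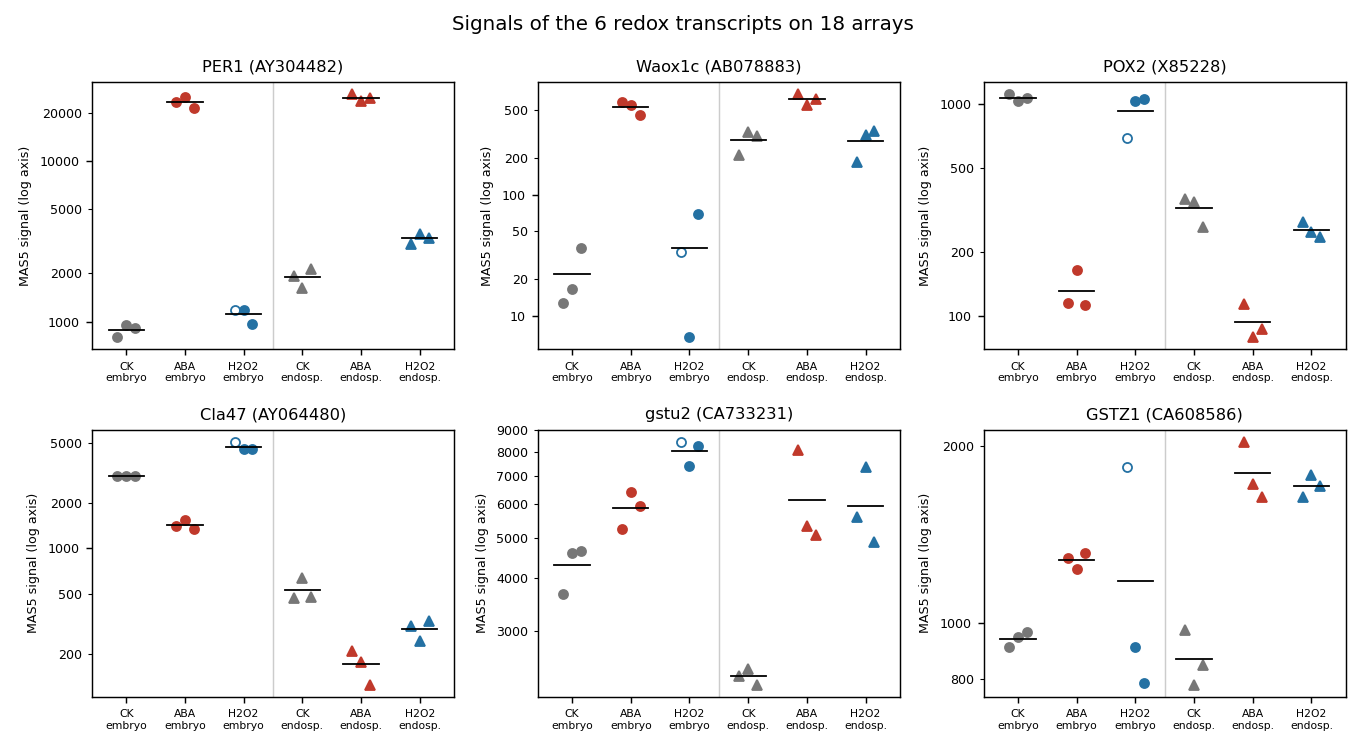
MAS5 signals (log axes that differ between panels) of the 6 redox transcripts on all 18 arrays, with circles for embryo, triangles for endosperm, grey for CK, red for ABA, blue for H2O2, an open circle for H2O2_embryo replicate 1 and bars for group means. PER1 reached 21384 to 26011 under ABA, while Waox1c lay between 6.73 and 69.0 in CK_embryo and H2O2_embryo.

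POX2, a peroxidase, had its dimmest signals where PER1 had its brightest. In CK_embryo its signals were 1109, 1039 and 1071, and in ABA_embryo 115, 165 and 112. In CK_endosperm they were 357, 344 and 264, and in ABA_endosperm 114, 79.7 and 86.9. The 2 ABA groups overlapped and lay below every other array. H2O2 gave 694, 1036 and 1051 in embryo and 278, 250 and 235 in endosperm, and both groups overlapped CK of the same tissue. ABA was 8.34-fold below CK in embryo (log2 -3.06 ± 0.22) and 3.44-fold below it in endosperm (-1.78 ± 0.22). For H2O2 the log2 folds were -0.24 ± 0.22 in embryo, or -0.04 ± 0.21 without replicate 1 of H2O2_embryo, and -0.33 ± 0.22 in endosperm.

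Among the 3 glutathione transferases of the set, Cla47 had the largest contrast between tissues. Its signals in embryo were 3032, 3016 and 3053 in CK, 1413, 1536 and 1349.8 under ABA, and 5095, 4619 and 4582 under H2O2. In endosperm they were 469, 633 and 476 in CK, 209, 175 and 124 under ABA, and 303, 243 and 329 under H2O2. No 2 neighbouring groups overlapped, and the order ran from H2O2_embryo through CK_embryo, ABA_embryo, CK_endosperm and H2O2_endosperm to ABA_endosperm. ABA lay below CK in both tissues, 2.12-fold in embryo (log2 -1.08 ± 0.17) and 3.14-fold in endosperm (-1.65 ± 0.17). H2O2 lay 1.57-fold above CK in embryo (log2 0.65 ± 0.17) and 1.80-fold below it in endosperm (-0.85 ± 0.17). All 3 H2O2 arrays of each tissue stood on the side its fold gives, beyond every CK array of that tissue. Without replicate 1 of H2O2_embryo the embryo value was 0.60 ± 0.17.

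gstu2, named as a member of the plant-specific tau class of glutathione transferases, was brighter in all 4 treated groups than in water. CK_embryo had signals of 3673, 4592 and 4636, ABA_embryo 5228, 6404 and 5956, and H2O2_embryo 8424, 7397 and 8248. CK_endosperm had 2342, 2442 and 2238, ABA_endosperm 8054, 5338 and 5064, and H2O2_endosperm 5591, 7359 and 4876. The 4 treated groups formed a chain in which each overlapped the next, above CK_embryo, which in turn lay above CK_endosperm. Over CK, ABA gave 1.37-fold in embryo and 2.57-fold in endosperm. The log2 folds of H2O2 were 0.91 ± 0.17 in embryo, 0.87 ± 0.16 without replicate 1, and 1.32 ± 0.17 in endosperm.

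GSTZ1 carries a name used for zeta class transferases, which in Arabidopsis act in tyrosine breakdown. Its endosperm signals were 972, 784 and 846 in CK, 2034, 1726 and 1642 under ABA, and 1639, 1790.1 and 1712 under H2O2. In embryo they were 907, 943 and 962 in CK, 1289, 1234 and 1315 under ABA, and 1843, 909 and 788 under H2O2. The 2 treated endosperm groups overlapped each other and stood above every embryo array except H2O2_embryo replicate 1. In endosperm ABA was 2.08-fold over CK (log2 1.05 ± 0.21) and H2O2 1.98-fold (0.99 ± 0.21). In embryo the log2 folds were 0.45 ± 0.21 for ABA and 0.23 ± 0.21 for H2O2, and the second was -0.15 ± 0.11 without replicate 1, so that its sign rested on that array.

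Waox1c, the alternative oxidase, was dim in the embryo unless ABA was given. CK_embryo had signals of 12.9, 16.8 and 36.6, H2O2_embryo 34.0, 6.73 and 69.0, and ABA_embryo 575, 547 and 451. CK_endosperm had 212, 331 and 303, H2O2_endosperm 185, 313 and 337, and ABA_endosperm 669.5, 548 and 616. The ABA groups of the tissues overlapped at the top, CK_endosperm and H2O2_endosperm overlapped below them, and CK_embryo and H2O2_embryo overlapped at the bottom. ABA over CK was 26.2-fold in embryo (log2 4.71 ± 0.51) and 2.20-fold in endosperm (1.14 ± 0.51). The embryo value compares bright arrays with arrays close to the floor of 10, and its size is not exact: it was 3.96 with a floor of 32 and 5.15 without replicate 3 of CK_embryo. H2O2 over CK gave 0.52 ± 0.51 in embryo, 0.40 ± 0.53 without replicate 1, 1.28 without replicate 2 and -0.11 without replicate 3, and it gave -0.04 ± 0.51 in endosperm.

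Of the 6 members, limma placed 4 past an adjusted p of 0.05 in ABA_embryo, where 5.74% of all 57992 probe sets passed. In ABA_endosperm 5 passed, against 6.87% of all. In H2O2_embryo 1 passed, gstu2, against 0.531% of all, and in H2O2_endosperm 4 passed, against 5.46% of all. Since the lists were drawn from the same arrays and contrasts, nothing is read from these counts. The median log2 fold of the 6 members was 0.45, 1.10, 0.42 and 0.38 in these contrasts in turn, and that of all probe sets tested was -0.05, -0.10, 0.12 and 0.00 (-0.00447). The same choice of genes shaped the member medians, so nothing is read from them either. In H2O2_embryo the member values of -0.24 to 0.91 are to be read beside the median of 0.12 in the same fit, which quantile normalization moved to -0.01.

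**Figure D2:**
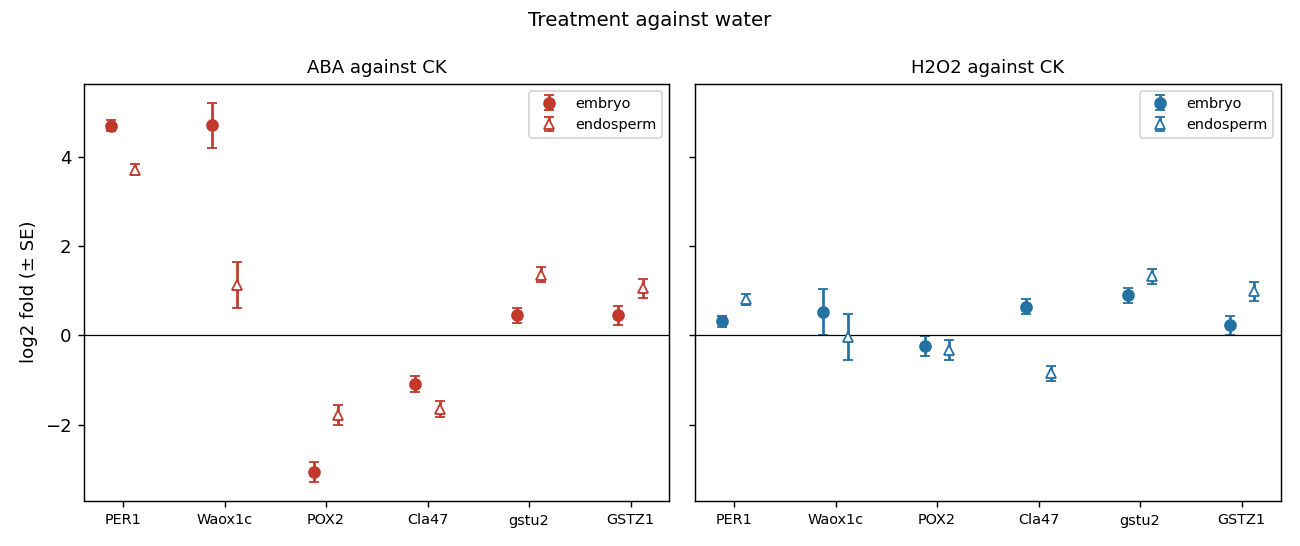
Log2 fold of ABA (left) and H2O2 (right) against CK for the 6 transcripts, with filled circles for embryo, open triangles for endosperm and bars for the standard error in limma. PER1 and Waox1c lay at 4.71 in the ABA embryo, POX2 at -3.06, and Cla47 under H2O2 at 0.65 in embryo and -0.85 in endosperm.

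The comparison of embryo with endosperm asked where each transcript was more abundant at the same treatment. In water, 5 of the 6 members differed between tissues, against 18.2% of all probe sets. Under ABA 1 of 6 differed, against 16.1% of all, and under H2O2 5 of 6, against 22.7% of all. These contrasts share their arrays with the treatment contrasts that chose the genes. SAM, the test of the study's methods, called 3, 1 and 2 members, and 3881, 4474 and 2129 of all probe sets.

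In CK the embryo held more of Cla47, POX2 and gstu2. Cla47 was 5.82-fold higher there (limma adjusted p = 1.3e-09), POX2 3.37-fold (7.3e-06) and gstu2 1.83-fold (0.00071), with no overlap of the tissues in any of them. The endosperm held more of PER1 and Waox1c, which were 2.12-fold (adjusted p = 1.7e-06) and 13.9-fold (1.5e-05) higher than in embryo. The Waox1c value compares endosperm with dim embryo arrays, and its log2 difference of -3.80 ± 0.51 became -3.05 with a floor of 32. GSTZ1 gave a log2 difference of 0.12 ± 0.21 and did not pass (0.79), and its tissues overlapped. All these values are of the member probe sets, and further probe sets of PER1, gstu2 and GSTZ1 did not all share them (below).

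Under ABA, Cla47 kept a difference past the threshold, 8.63-fold higher in embryo (limma adjusted p = 6.6e-11). For the other members the log2 differences of embryo from endosperm were -0.09 ± 0.12 for PER1 (0.75), -0.22 ± 0.51 for Waox1c (0.88), 0.48 ± 0.22 for POX2 (0.19), -0.04 ± 0.17 for gstu2 (0.94) and -0.49 ± 0.21 for GSTZ1 (0.14). The tissues overlapped for PER1, Waox1c, POX2 and gstu2. They did not for GSTZ1, whose endosperm arrays were all brighter, and without H2O2_embryo replicate 1 the standard error was 0.10 in place of 0.21 and the difference passed (adjusted p = 0.000567). That setting, in which all groups share a new estimate of the spread, raised the share of all probe sets called to 24.1%.

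Under H2O2 the tissues stood apart as in water for 4 members. Cla47 was 16.5-fold higher in embryo (limma adjusted p = 4.4e-13) and POX2 3.59-fold (2.5e-06). Without H2O2_embryo replicate 1 these were 15.9-fold and 4.11-fold. PER1 was 2.97-fold higher in endosperm (5.3e-09) and Waox1c 9.40-fold (6.9e-05). The other PER1 probe set lay the other way (below). The log2 difference of Waox1c, -3.23 ± 0.51, ranged from -2.48 without replicate 2 of H2O2_embryo to -3.87 without replicate 3. GSTZ1 was 1.56-fold higher in endosperm (adjusted p = 0.03), and this value depended on H2O2_embryo replicate 1, the only embryo array as bright as the endosperm. Without it the log2 difference was -1.02 ± 0.11 in place of -0.64 ± 0.21 (adjusted p = 1.28e-07), and without replicate 2 or 3 of that group, or any 1 array of H2O2_endosperm, it no longer passed (0.0588 to 0.168). The gstu2 difference, 0.45 ± 0.17 towards embryo, did not pass (limma adjusted p = 0.06). It passed without ABA_endosperm replicate 1 (0.0258), without H2O2_endosperm replicate 2 (0.0158), with quantile normalization (0.0176) and with a filter of 100 (0.0419). Without H2O2_embryo replicate 1, 5 of the members were again past the threshold.

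**Figure D3:**
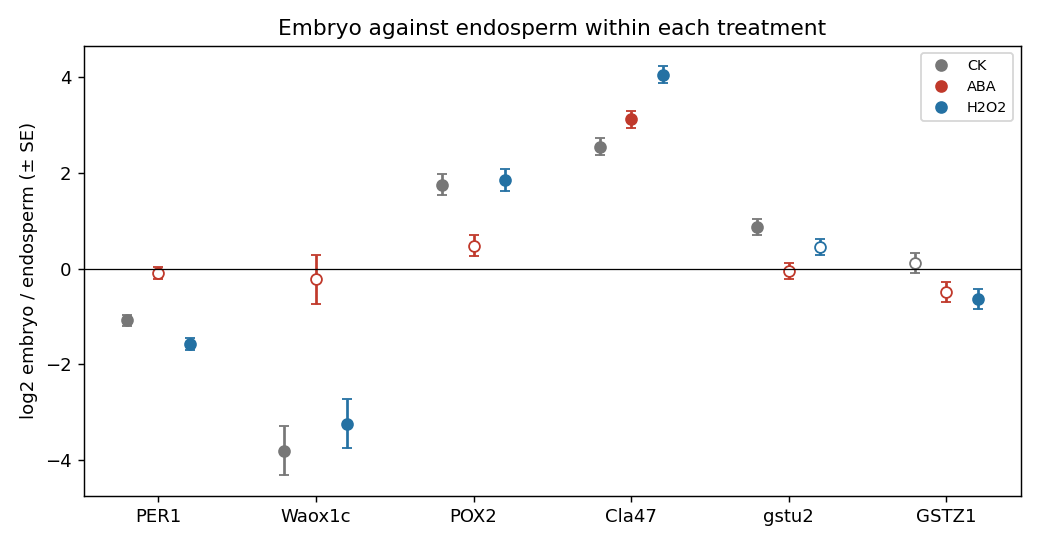
Log2 of embryo over endosperm for the 6 transcripts in CK (grey), ABA (red) and H2O2 (blue), with bars for the standard error and filled points where limma's adjusted p lay under 0.05. Cla47 is filled in all 3 treatments at 2.54, 3.11 and 4.04, while the other 5 transcripts are open under ABA.

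The array holds 6 further probe sets that its annotation assigns to PER1, gstu2 or GSTZ1, none of which stands in the study's lists. They are not independent of the choice of genes and are described without a test. The other PER1 probe set, designed on CA653248, did not share the brighter ABA signal in embryo, with 214, 245 and 235 in CK_embryo against 319.5, 206 and 219 in ABA_embryo (log2 0.07 ± 0.30). In endosperm it had 139, 124 and 128 in CK and 244, 161 and 227 under ABA (log2 0.67 ± 0.30), which did not overlap. Its embryo groups overlapped where those of the member probe set differed 26.2-fold. Between tissues it lay opposite to the member probe set. In CK it was brighter in embryo without overlap (log2 embryo over endosperm 0.83 ± 0.30). Under H2O2 its signals were 507, 259 and 311 in embryo and 159, 124 and 246 in endosperm, again without overlap. Which transcript each set of probes reports was not tested.

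For GSTZ1 the further probe sets differed among themselves. The probe set of AF002211 with the ending _a_at gave 1183, 1082 and 1004 in CK_endosperm, 2279, 2205 and 2037 in ABA_endosperm and 2072, 2186 and 2048 in H2O2_endosperm, with log2 folds of 0.998 ± 0.11 and 0.95 ± 0.11, close to the 1.05 and 0.99 of the member. On this probe set H2O2_embryo replicate 1, at 1126, lay between the other 2 arrays of its group, unlike on the member probe set. The probe set of CA649877 gave 0.75 ± 0.19 and 0.61 ± 0.19 in endosperm and the other one of AF002211 gave 0.03 ± 0.16 and 0.08 ± 0.16. The gstu2 probe set of CA698466 gave 0.67 ± 0.20 for ABA and 0.72 ± 0.20 for H2O2 in endosperm, below the 1.36 and 1.32 of the member, and the dim one of CA663935, with signals of 36.3 to 336.5 over all arrays, gave 0.29 ± 0.58 and 0.81 ± 0.58. In CK the tissues overlapped on both gstu2 probe sets (log2 embryo over endosperm -0.21 and -0.28), unlike on the member. For GSTZ1 they overlapped on the _a_at probe set (0.22). On that of CA649877 (-0.41) and the other one of AF002211 (-0.53) endosperm was brighter without overlap.

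**Figure D4:**
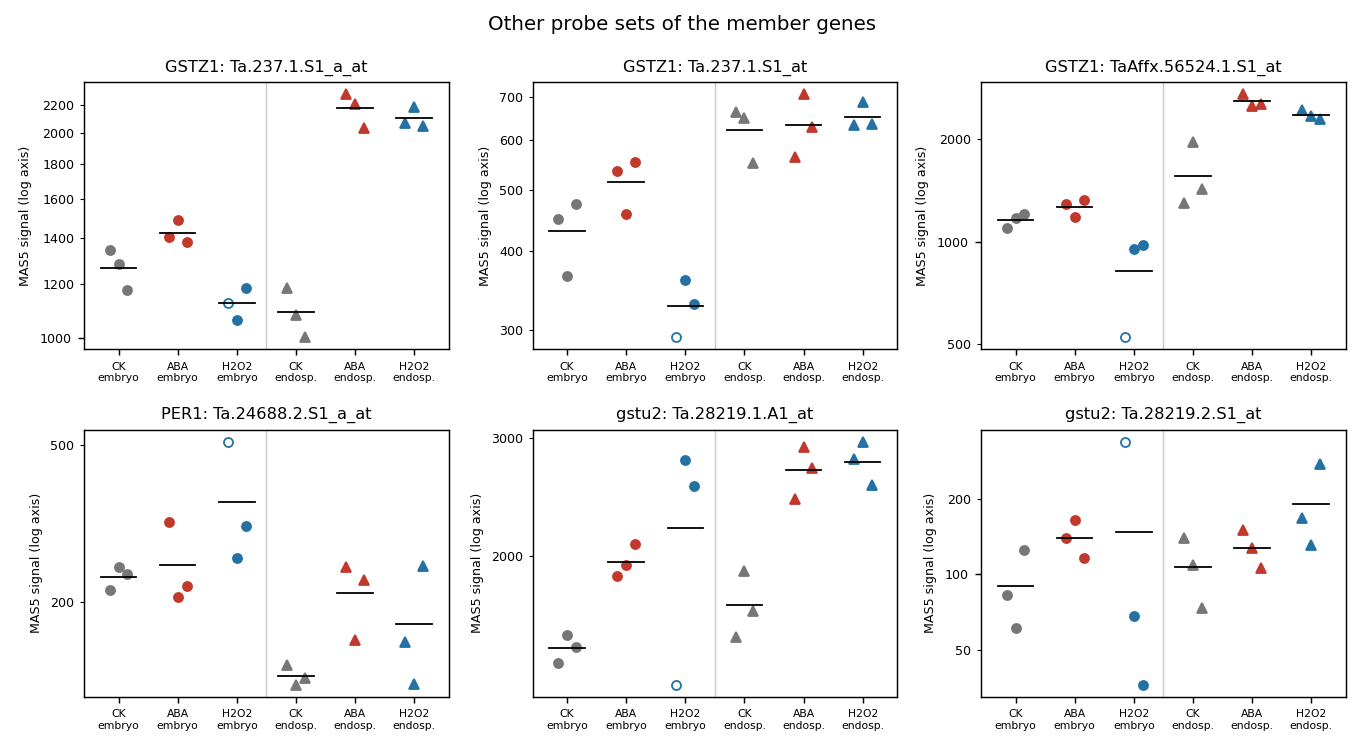
MAS5 signals (log axes that differ between panels) of the 6 further probe sets of GSTZ1, PER1 and gstu2 on 18 arrays, with circles for embryo, triangles for endosperm, grey for CK, red for ABA, blue for H2O2, an open circle for H2O2_embryo replicate 1 and bars for group means. The AF002211 probe set ending in _a_at stood at 2037 to 2279 in the treated endosperms, and the PER1 probe set stayed between 124 and 507 on all arrays.

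Other redox genes were taken from the annotation by class. In the study's lists stand 8 further probe sets, whose treatment values are again descriptions. Germin (M21962), which in wheat is an oxalate oxidase that releases H2O2, followed an order of groups identical to that of Cla47: 8747, 6166 and 6059 in H2O2_embryo, 3592, 3887 and 3789 in CK_embryo, 1367, 1487 and 1295 in ABA_embryo, 714, 751 and 653 in CK_endosperm, 437, 582 and 514.5 in H2O2_endosperm and 169, 174 and 217 in ABA_endosperm. No neighbours in that order overlapped. Both probe sets of another oxalate oxidase were brighter under ABA, with log2 folds of 1.75 ± 0.23 and 1.89 ± 0.24 in embryo and 1.19 ± 0.23 and 1.43 ± 0.24 in endosperm. The peroxidase pox4 lay lower under ABA, as POX2 did, at -2.16 ± 0.33 in embryo and -1.89 ± 0.33 in endosperm.

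Among glutathione genes of these lists, gstu1B (CA664790) had log2 folds over CK of 1.19 ± 0.13 in ABA_embryo, 0.54 ± 0.13 in ABA_endosperm, 0.01 ± 0.13 in H2O2_embryo and 0.47 ± 0.13 in H2O2_endosperm. The glutathione synthetase gs3 (CA607898), which makes the tripeptide that the transferases use, had -0.20 ± 0.19, 0.91 ± 0.19, -0.41 ± 0.19 and 1.35 ± 0.19 in the same order. Without H2O2_embryo replicate 1 the H2O2_embryo values were 0.19 ± 0.08 for gstu1B and -0.23 ± 0.17 for gs3. The gs3 endosperm arrays were 273, 196 and 259 in CK and 524, 587 and 754 under H2O2, which did not overlap. Between tissues, limma called 4 of these 8 probe sets in CK, 3 under ABA and 6 under H2O2, against 18.2%, 16.1% and 22.7% of all. Germin was higher in embryo in all 3 treatments, by log2 differences of 2.41, 2.90 and 3.76 (limma adjusted p = 4.2e-10, 2.8e-11 and 1.9e-13), and so was the glutathione transferase 28e45, by 2.61, 2.79 and 3.48 (4.3e-06, 1.9e-06 and 5.7e-08). The endosperm signals of 28e45 were 45.9 to 138, near the median of all probe sets, so the size of its differences is not exact. The listed gstu1B probe set was higher in endosperm, with a log2 of embryo over endosperm of -1.58, -0.93 and -2.04 (limma adjusted p = 2.2e-08, 2.6e-05 and 2.7e-10). Probe sets of gstu1B outside the lists did not all share this in CK. That of BJ241436 ending in _x_at gave 0.10 ± 0.11, with embryo brighter without overlap. The one ending in _s_at gave -0.18 ± 0.13, and the dim one of AJ414698 -1.155 ± 0.89. Under ABA, endosperm was brighter without overlap on both BJ241436 probe sets.

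**Figure D5:**
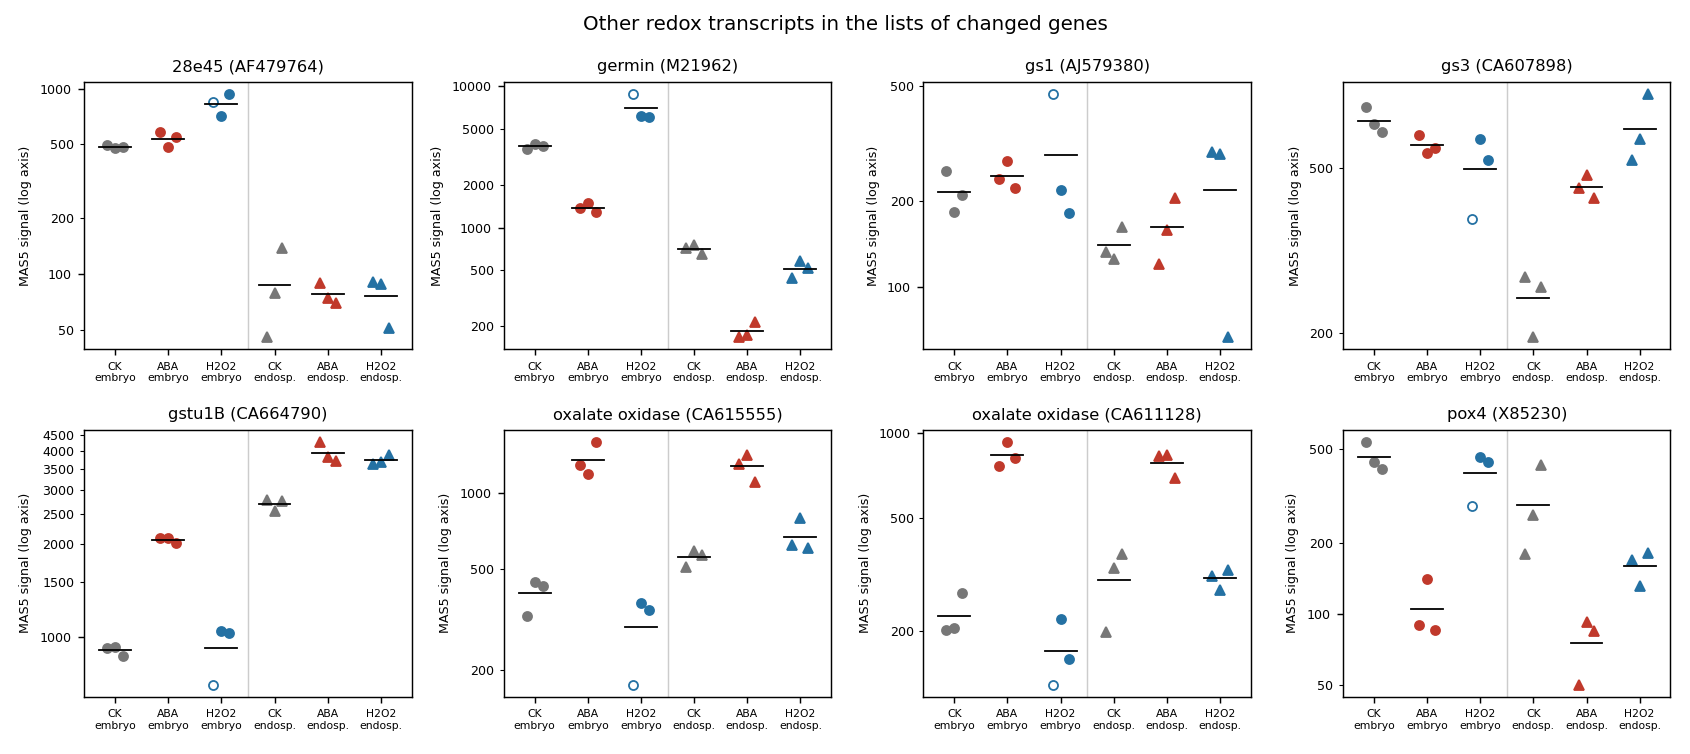
MAS5 signals (log axes that differ between panels) of 8 other redox probe sets from the study's lists on 18 arrays, with circles for embryo, triangles for endosperm, grey for CK, red for ABA, blue for H2O2, an open circle for H2O2_embryo replicate 1 and bars for group means. Germin stood at 6059 to 8747 in H2O2_embryo and at 169 to 217 in ABA_endosperm.

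Outside those lists the annotation named 13 redox probe sets of gstu1B, gs3, germin, catalase (CAT1), thioredoxin (Trx-M) and Prx1, a symbol that the tables do not spell out. The mean signal stayed below 100 in every group for 7 of them. Of the 13, limma called 0 in ABA_embryo and 0 in H2O2_embryo, with 0 and 1 at an unadjusted p under 0.05. It called 1 in ABA_endosperm and 2 in H2O2_endosperm, all higher than CK, with 2 and 3 at an unadjusted p under 0.05. These shares stand beside the 5.74%, 0.531%, 6.87% and 5.46% of all probe sets given above. The listed redox probe sets, drawn from the same contrasts, had been set aside. That choice lowers the counts, so nothing is read from them. The calls were gs3 (CK156077) under H2O2, with 2761, 2667 and 2621 in CK_endosperm and 3646, 3765 and 3802 in H2O2_endosperm (log2 0.48 ± 0.13, limma adjusted p = 0.029), and gstu1B (BJ241436, the probe set ending in _x_at) under ABA (0.36 ± 0.11, 0.048) and H2O2 (0.38 ± 0.11, 0.048). The gstu1B signals were 19876, 20829 and 20602 in CK_endosperm, 25158, 27008 and 26804 in ABA_endosperm and 26427, 27158 and 25974 in H2O2_endosperm, so the treated groups lay above water and overlapped each other. These 2 probe sets gave endosperm values in the direction of the listed probe sets of the same genes, with smaller log2 folds. In embryo they were less alike. Under ABA gstu1B had 0.03 ± 0.11 here against 1.19 ± 0.13 on the listed probe set, and gs3 -0.22 ± 0.13 against -0.20 ± 0.19. Under H2O2 gstu1B had 0.20 ± 0.11 against 0.01 ± 0.13, and gs3 -0.03 ± 0.13 against -0.41 ± 0.19. The calls among the 13 probe sets rested on the arrays used. Without any 1 array of H2O2_endosperm, or replicate 1 or 3 of CK_endosperm, 0 were made. Without H2O2_embryo replicate 1, 6 were made. There was 1 call without any 1 array of CK_embryo or ABA_embryo, without replicate 2 of CK_endosperm, and without replicate 2 or 3 of ABA_endosperm.

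For each member, the 3 named or described probe sets of other genes with the most similar profile were found by Pearson correlation of log2 signals over the 18 arrays, among 2546 candidates. The arrays fall into 6 groups, so these values mostly restate the order of group levels. PER1 ran closest to a multiple inositol polyphosphate phosphatase (BT009611, r = 0.983), a group 3 LEA (late embryogenesis abundant) protein (AY148490, 0.981), one of the proteins that protect drying seeds, and L-isoaspartyl methyltransferase (L07941, 0.971), which repairs aged proteins. Waox1c ran closest to the ABA-induced plasma membrane protein PM 19 (U80037, 0.947), a Rab protein listed as rab 15B (X62476, 0.942) and an 11-beta-hydroxysteroid dehydrogenase-like protein (BJ297580, 0.94). POX2 was nearest to the cold acclimation protein WCOR410c (BJ264076, 0.981), an alpha tubulin (CA640220, 0.97) and a ferredoxin-related transcript (CK169904, 0.964).

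Cla47 was nearest to a probe set described as a reversibly glycosylated polypeptide of cell wall synthesis (r = 0.983), a cellulose synthase-like transcript (CD452591, 0.98) and germin (M21962, 0.978). GSTZ1 was nearest to a long-chain acyl-CoA synthetase (0.968), a phospholipid synthesis enzyme transcript (BJ222865, 0.895) and a ferredoxin (AF486634, 0.877). The nearest to gstu2 were less alike, at 0.835 (AY525641), 0.797 (a probe set described as a cell wall precursor enzyme) and 0.795 (BJ238724). Counting unnamed probe sets too, 7 (POX2) to 41 (gstu2) ranked above the third of these neighbours.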

How the data were processed

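The authors hybridised RNA of 18 samples to the Affymetrix Wheat Genome Array and summarised each array with MAS5 (Microarray Suite, named in the submitters' processing notes). The deposited values are linear signal intensities, 1 column per array, without a floor or detection calls. The methods name a target signal of 100, while the trimmed means here were 495.1 to 498.6. Samples were grouped by their labels, and the paper describes the replicates as biological. Control probe sets (111, 0.181%) were left out. Signals below 10 were raised to 10, log2 was taken, and 57992 probe sets with a signal of 20 on 3 arrays were kept (3187 were not). Then limma 3.58.1 under R 4.3.3 fitted 6 group means over 18 arrays with eBayes and a trend, and p-values were adjusted by Benjamini-Hochberg over all 57992, with 0.05 as the threshold. The fit was tested on simulated data.

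Members and gene lists were chosen with earlier results of these data known. The named genes are all members, the 3 largest rises and falls of other redox genes past the threshold in each treatment contrast, and the 3 most similar named probe sets per member. Redox genes were found through gene IDs in the reference table and names in the study's lists, because the table holds symbols only. By the platform annotation, 1273 probe sets have a gene, 1272 of which matched RefSeq. Gene symbols of the platform annotation and their RefSeq synonyms gave the embryo and endosperm markers. No aleurone marker was used. Fold changes and other comparison columns of the authors' supplements were not used. Alternatives were floors of 1 and 32, no filter or one of 100, quantile and 75th percentile scaling, no trend, only the 6 arrays compared, a replicate block, each array left out, and SAM (the study's test, over all 20 label orders, at the 5% false discovery rate of its Results, where its Methods give 1%). Replicate numbers were not used to pair samples. Deviations of same-numbered arrays correlated by -0.0347 to 0.0189 over the 9 tissue pairs within a treatment. Over all 45 same-numbered pairs of arrays from different groups they correlated by -0.0369 to 0.0738. Correlations over all probe sets, many of them dim, cannot exclude a shared origin of 2 samples. Python 3.11.15, numpy 2.4.6 and pandas 2.3.3 gave the remaining values. Arrays give no counts, and 3 per group limit the precision.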

Additional observations from a re-analysis of the deposited data

Results flagged for a closer look

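The probe sets searched were the 6 members, the 6 further ones of their genes, and the 8 listed and 13 unlisted redox probe sets. For 5 probe sets all arrays of embryo lay on one side of CK and all arrays of endosperm on the other under the same treatment. The share over all wheat probe sets was not computed, so nothing is read from this count. Values are log2 folds over CK in embryo minus those in endosperm, and for Cla47, germin, gs3 and the GSTZ1 probe set the difference was not tested, since the treatment contrasts chose these genes. Under H2O2 the difference was 1.499 for Cla47 (AY064480, 0.65 in embryo and -0.85 in endosperm) and 1.35 for germin (M21962, 0.88 and -0.47). It was -1.17 for the GSTZ1 probe set of CA649877 (-0.56 and 0.61). For the glutathione synthetase gs3 (CA607898) it was -1.77 under H2O2 (-0.41 and 1.35) and -1.105 under ABA (-0.20 and 0.91). For Prx1 (CK212997), outside the study's lists, the H2O2 difference was 2.47 (0.68 and -1.79), the signals were 0.968 to 169 over all arrays, and limma's test of the difference did not pass (adjusted p = 0.11). Without H2O2_embryo replicate 1 the H2O2 differences were 1.45 for Cla47 and 1.18 for germin. They were -0.88 for the GSTZ1 probe set, -1.58 for gs3 and 2.19 for Prx1. The other probe sets of germin, GSTZ1, gs3 and Prx1 overlapped CK in at least 1 tissue under each treatment. For gs3, that of CK156077 gave -0.03 in embryo and 0.48 in endosperm under H2O2, and -0.22 and 0.18 under ABA. For Prx1 under H2O2, the other one of CK212997 gave 1.63 and -0.81, that of BQ172133 0.05 and -1.20, and that of CA633551 0.80 and 1.30.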

How the results depend on the processing

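The count of members that differed between embryo and endosperm was 5 in CK under every limma setting, 1 under ABA and 5 under H2O2. Under ABA it was 2 with scaling to the 75th percentile and with only the 6 arrays compared, and 1 to 2 with an array left out (2 without H2O2_embryo replicate 1). Under H2O2 it was 4 to 6 with an array left out, 4 without the trend and with only the 6 arrays compared, and 6 with a filter of 100. SAM called 3 in CK, 1 under ABA and 2 under H2O2. A replicate block left these counts at 5, 1 and 5 and gave 1 call in place of 3 among redox probe sets outside the study's lists. That last count was also 1 with the 75th percentile and without the trend, 5 with only the 6 arrays compared, and 0 to 6 with an array left out.

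Single differences that did not pass changed sign: GSTZ1 in CK (-0.0079 with quantile normalization, -0.071 with the 75th percentile), PER1 under ABA (0.18, quantile), and gstu2 under ABA (0.080 with quantile, -0.17 to 0.17 with an array left out, above 0 without replicate 1 of ABA_embryo or of ABA_endosperm). GSTZ1 under H2O2 lost its call with quantile normalization, no trend and 6 arrays (adjusted p = 0.0592, 0.0891 and 0.263) and gained one under ABA with the 75th percentile and 6 arrays (0.017 and 0.0116), while gstu2 under H2O2 gained one with quantile normalization and a filter of 100 (0.0176 and 0.0419). Over members and settings, 465 tissue differences kept direction and side of the threshold, 6 changed sign, 7 gained a call and 8 lost one. The causes were not tested. Scaling to the 75th percentile moved the median of all probe sets between tissues in CK from -0.01 to -0.18, and quantile normalization moved it under H2O2 from 0.18 to 0.03. Signals near 10, as of Waox1c in embryo, limit the size of a fold.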
